A study of Drosophila melanogaster with 10 samples.

Results

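Cytochrome P450 genes of Drosophila melanogaster were followed after RNAi against the linker histone H1 in cultured cells and in salivary glands. A gene belonged to the set if its platform symbol was Cyp followed by a digit, and each gene was read from its probe set of highest mean signal across the arrays. The rule found 83 of 11982 named genes. Of these, Cyp1 and Cyp40 are cyclophilins, which are protein-folding enzymes and not P450s, so 81 P450 genes remained. All 81 were found by symbol in the RefSeq annotation, which lists 85 P450 symbols under this naming.

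P450 enzymes are haem proteins that insert an oxygen atom into their substrates. Most insect P450s sit in the endoplasmic reticulum and take electrons from the P450 reductase, while the mitochondrial ones take them from ferredoxin. Insect P450s fall into the CYP2, CYP3, CYP4 and mitochondrial clans. Many members of the CYP3 and CYP4 clans act on plant toxins, insecticides and fatty acids, whereas several members of the CYP2 and mitochondrial clans make or break down the moulting hormone ecdysone. In the larva, fat body, midgut and Malpighian tubules are known as the main sites of P450 activity against foreign compounds. Linker histone H1 binds the DNA between nucleosomes and compacts chromatin.

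The series held 10 arrays. Kc cells, a haemocyte-like line made from Drosophila embryos, were grown at 25 °C and exposed to dsRNA against H1 (2 arrays) or against GFP (2 arrays). By the sample labels each dsRNA treatment lasted 1 hour in serum-free medium and was repeated on days 0, 2 and 4, with harvest on day 6; the series record mentions a single treatment. Salivary glands were taken from transgenic flies with RNAi against H1 (3 arrays) or against nau, the gene of a muscle transcription factor (3 arrays). The Tub-Gal4 driver, named in the labels of the glands, is active throughout the animal, so the RNAi was not limited to the glands in either gland group. The crosses were kept at 18 °C and knockdown was at 29 °C from the embryo on. The labels give no age, sex or developmental stage of the animals, no number of glands per sample, and do not say if replicate arrays stem from independent cultures or animals. The p-values thus rest on the spread between arrays, which may be technical.

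Values are log2 of the deposited probe set intensity, and changes are differences of group means on that scale with the standard error of the limma fit. The fit estimates the spread of a gene over all 4 groups together. Standard errors and p-values for Kc cells thus also carry the spread between gland arrays. A gene is called where its p, after Benjamini-Hochberg adjustment across the 18769 probe sets tested, was under 0.05. Intensities of different probe sets are not set against each other. No filter on low values was applied. Array medians lay between 4.11 and 4.31. Probe sets that match no fly transcript (17 Tag controls) had a 95th percentile of 3.55, which serves here as the background level. The spread between arrays of a group, pooled over the P450 genes, was 0.132 (SD, log2) for Kc cells with H1 RNAi, 0.135 for those with GFP RNAi, 0.259 for glands labelled H1 RNAi and 0.318 for glands labelled nau RNAi. No probe set used here carries the name of the H1 gene His1, so depletion of H1 was not measured. The nau transcript stood at 3.47 ± 0.10 in glands labelled H1 RNAi and at 5.68 ± 0.29 in glands labelled nau RNAi (SD, n = 3 each), which is opposite to a depletion of nau. Directions in glands therefore refer to the labels throughout.

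In Kc cells, every P450 gene that passed the test rose. Of the 81 genes, 14 rose with H1 RNAi (17.3%), while 3.46% of all named genes rose. None of the 81 was called lower, against 1.59% of all named genes. At an unadjusted p under 0.05 limma had 21 P450 genes higher and 3 lower, and the share of all named genes at that limit was not counted. At least 2-fold increases were found for 12 of the 81 (14.8%), against 1.73% of all named genes. The median change was 0.07 over the P450 genes and -0.03 over all named genes, and changes ran from -0.63 (Cyp6a9) to 2.61 (Cyp28d1). The 14 genes were spread over 4 clans, with 5 of the 8 mitochondrial P450s of the set, 5 of 37 in the CYP3 clan, 3 of 32 in the CYP4 clan and 1 of 4 in the CYP2 clan. P450 genes of ecdysteroid synthesis carry names of their own, among them the mitochondrial shd, and are not in these clan counts.

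**Figure D1:**
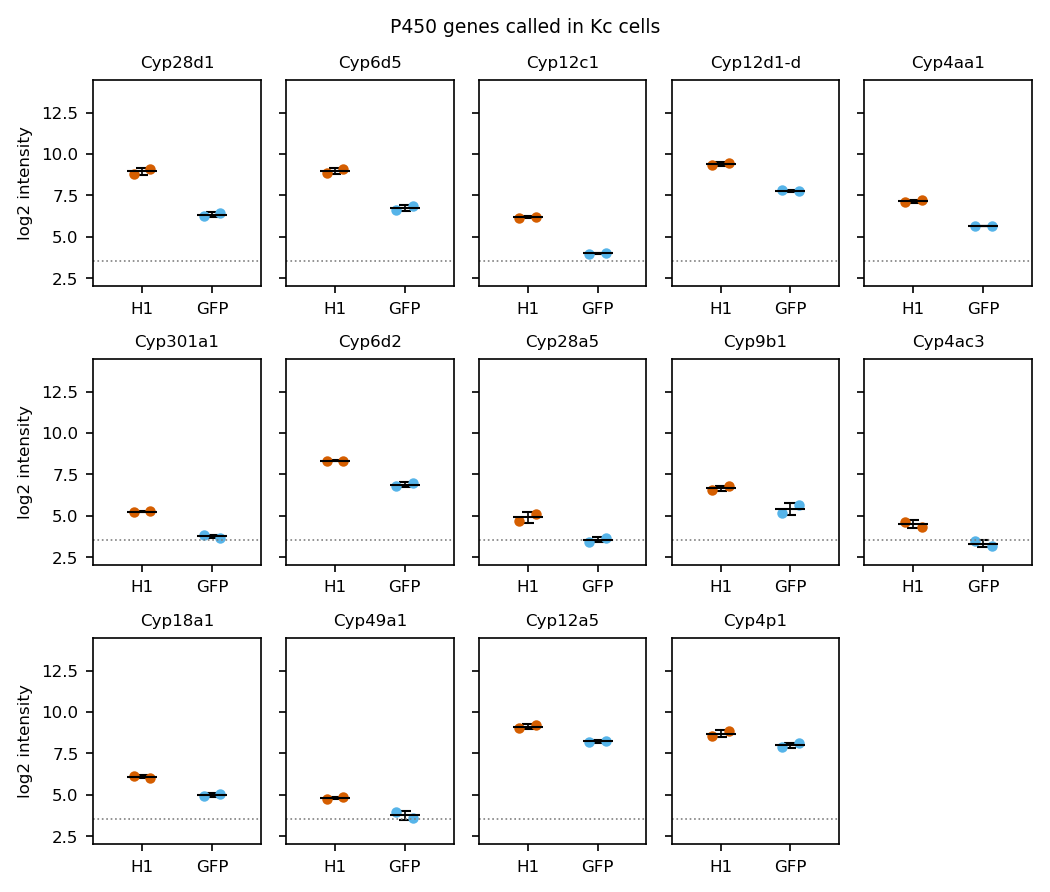
Log2 intensity of the 14 P450 genes called in Kc cells, in order of their change, with 1 point per array, a bar at the group mean and error bars of 1 SD (n = 2 per group); the dotted line is the Tag control level of 3.55. In each panel both H1 RNAi arrays lie above both GFP RNAi arrays, a separation favoured by the choice of called genes.

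The mitochondrial P450s of the set, without those of ecdysteroid synthesis, had a median change of 0.97 in Kc cells. Cyp12c1 had 6.15 and 6.22 in H1 RNAi cells, against 3.97 and 4.03 in GFP RNAi cells, a change of 2.18 ± 0.12 (4.54-fold higher, adjusted p = 3.84e-05). Cyp12d1-d, an enzyme known to be induced by phenobarbital and caffeine and linked to DDT resistance, had 9.32 and 9.46 in H1 RNAi cells, against 7.80 and 7.74 in GFP RNAi cells, a change of 1.62 ± 0.18 (3.08-fold higher, adjusted p = 9.52e-04). Both genes separated the groups by more than any spread within a group. Cyp301a1, which is known for its part in cuticle formation, had 5.22 and 5.29 in H1 RNAi cells, against 3.83 and 3.68 in GFP RNAi cells, a change of 1.50 ± 0.10 (2.82-fold higher, adjusted p = 7.08e-05). Cyp49a1 had 4.77 and 4.85 in H1 RNAi cells, against 3.96 and 3.57 in GFP RNAi cells, a change of 1.05 ± 0.20 (2.07-fold higher, adjusted p = 0.0187). For both of these genes the GFP RNAi arrays were close to the Tag level. Cyp12a5 had 9.01 and 9.23 in H1 RNAi cells, against 8.17 and 8.27 in GFP RNAi cells, a change of 0.90 ± 0.17 (1.87-fold higher, adjusted p = 0.0188). The other 3 mitochondrial members, Cyp12a4, Cyp12b2 and Cyp12e1, were not called, with changes of 0.10, -0.16 and -0.43.

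In the CYP3 clan, the largest change of any P450 in Kc cells was that of Cyp28d1, a gene linked to nicotine resistance, which had 8.79 and 9.09 in H1 RNAi cells, against 6.23 and 6.43 in GFP RNAi cells, a change of 2.61 ± 0.19 (6.12-fold higher, adjusted p = 8.58e-05). Cyp6d5, known to be induced by phenobarbital and caffeine, had 8.83 and 9.10 in H1 RNAi cells, against 6.61 and 6.86 in GFP RNAi cells, a change of 2.23 ± 0.15 (4.69-fold higher, adjusted p = 7.08e-05). In both genes the groups lay far apart relative to the spread within them. Cyp6d2, known for a part in tolerance of the plant alkaloid camptothecin, had 8.31 and 8.34 in H1 RNAi cells, against 6.78 and 6.99 in GFP RNAi cells, a change of 1.43 ± 0.13 (2.70-fold higher, adjusted p = 2.59e-04). Cyp28a5 had 4.68 and 5.13 in H1 RNAi cells, against 3.44 and 3.68 in GFP RNAi cells, a change of 1.35 ± 0.17 (2.54-fold higher, adjusted p = 0.00179), with GFP RNAi arrays on either side of the Tag level. Cyp9b1 had 6.54 and 6.77 in H1 RNAi cells, against 5.15 and 5.65 in GFP RNAi cells, a change of 1.25 ± 0.23 (2.38-fold higher, adjusted p = 0.0159), and its GFP RNAi arrays lay farther apart than those of the other called genes. Cyp6w1 had 7.16 and 6.94 in H1 RNAi cells, against 5.58 and 5.40 in GFP RNAi cells. Its change of 1.56 ± 0.38 did not pass (adjusted p = 0.0556), although the groups did not overlap. None of the 13 Cyp6a genes was called in Kc cells, where their changes ran from -0.63 to 0.88.

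In the CYP4 clan, Cyp4aa1 had 7.09 and 7.20 in H1 RNAi cells, against 5.64 and 5.64 in GFP RNAi cells, a change of 1.50 ± 0.18 (2.84-fold higher, adjusted p = 0.00113). Cyp4ac3 had 4.65 and 4.32 in H1 RNAi cells, against 3.47 and 3.16 in GFP RNAi cells, and its adjusted p was 0.0185. Both GFP RNAi arrays were below the Tag level, so that with the Tag level as floor it was at least 1.91-fold higher in H1 RNAi cells. Cyp4p1 had 8.54 and 8.83 in H1 RNAi cells, against 7.88 and 8.10 in GFP RNAi cells, a change of 0.69 ± 0.13 (1.62-fold higher, adjusted p = 0.0184), the smallest of the called ones. The CYP2 clan gave Cyp18a1, which inactivates ecdysone, with 6.15 and 6.04 in H1 RNAi cells, against 4.92 and 5.07 in GFP RNAi cells and a change of 1.10 ± 0.14 (2.15-fold higher, adjusted p = 0.00205). A further probe set of Cyp18a1 also rose in Kc cells (1.12, adjusted p = 0.0285).

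With 2 arrays per group, 5 of these 14 calls depended on single arrays. Cyp12a5 and Cyp4ac3 missed the threshold without any 1 of the 4 Kc arrays (changes of 0.79 to 1.01 and 1.01 to 1.34), Cyp49a1 without GFP array b or either H1 array, Cyp4p1 without either GFP array or H1 array b, and Cyp9b1 without GFP array a or either H1 array. Without H1 array b the count of increases was 9. With the Kc arrays fitted alone it was 22 with 4 decreases, and the 14 genes all remained called. Of 10 haemocyte markers 2 were lower with H1 RNAi in Kc cells and none was higher, against 1.59% of all named genes lower and 3.46% higher. He was 3.86 in H1 RNAi cells and 7.32 in GFP RNAi cells (limma adjusted p = 5.73e-04). For eater the means were 5.12 and 7.15 (adjusted p = 0.00131). The sum over the markers was 8076 to 8313 in H1 RNAi cells and 8036 to 8271 in GFP RNAi cells. Bright markers such as Hml (12.44 in H1 RNAi cells and 12.23 in GFP RNAi cells) dominate this sum. Of the markers of salivary gland, fat body, neurons and glia, and trachea and epidermis 1 each was higher in H1 RNAi cells, and no marker of midgut, Malpighian tubule or muscle was called there. The 18S ribosomal RNA control signal was 4.36 ± 0.41 in H1 RNAi cells and 6.76 ± 1.09 in GFP RNAi cells (log2, SD, n = 2 each), and its part in the P450 values was not tested.

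More P450 genes were called in glands than in Kc cells. Of the 81 P450 genes, 39 were higher in glands labelled H1 RNAi (48.1%) and 7 were lower (8.64%), while 23.6% of all named genes were higher and 23.6% lower. At least 2-fold increases were found for 22 of the 81 (27.2%), against 9.81% of all named genes. The median change was 0.32 over the P450 genes and -0.04 over all named genes, with a range from -3.90 (Cyp4d1) to 4.88 (Cyp4ac3). In whole-organ RNA a lower level can stand for fewer cells of a type or less RNA per cell, and the arrays cannot tell these apart.

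Marker transcripts of other tissues were measured in both gland groups. The fat body genes Lsp2 and Fbp2 were close to the top of the intensity range in glands labelled H1 RNAi (14.08 and 13.98) and in glands labelled nau RNAi (14.06 and 13.60). The summed intensity of the 5 measured fat body markers was 57300 to 59370 in glands labelled H1 RNAi and 50780 to 54030 in glands labelled nau RNAi, with 3 markers higher and 1 lower. Markers near the top of the intensity range dominate this sum. Farther below it, Apoltp was 11.97 in H1 RNAi glands and 10.44 in nau RNAi glands (change 1.53, limma adjusted p = 9.46e-05). The marker called lower was Fbp1 (-0.58, adjusted p = 0.0107). Of 14 measured salivary gland markers 10 were lower and 1 higher, and their sum was 42120 to 50460 in glands labelled H1 RNAi, against 133000 to 137300 in glands labelled nau RNAi, with none at the Tag level. Of 10 haemocyte markers 8 were higher and 1 lower (sum 3580 to 4295 in H1 RNAi glands and 2457 to 2864 in nau RNAi glands). Of 10 midgut markers 4 were higher and 1 lower (325.3 to 1446 in H1 RNAi glands and 180.3 to 261.8 in nau RNAi glands, with 1 and 3 markers at the Tag level). Of 6 Malpighian tubule markers none was higher and 2 were lower (81.94 to 96.33 in H1 RNAi glands and 92.73 to 100.7 in nau RNAi glands, with 3 and 2 at the Tag level). Of 7 markers of neurons and glia 4 were higher and 1 lower (173.5 to 573.3 in H1 RNAi glands and 100.9 to 103.5 in nau RNAi glands), of 4 muscle markers 1 was higher (264.5 to 613.1 in H1 RNAi glands and 340.4 to 448.0 in nau RNAi glands), and of 6 markers of trachea and epidermis none was called (467.8 to 1074 in H1 RNAi glands and 598.8 to 738.1 in nau RNAi glands). The upper ends of the midgut and neuronal sums in H1 RNAi glands came from array a. In arrays a, b and c, elav was 7.78, 5.41 and 5.68, and Jon65Aiv was 9.28, 6.80 and 6.37. Other markers, such as cac and Jon99Ci, were not highest in that array. Among all named genes 23.6% were higher and 23.6% lower in glands labelled H1 RNAi. The part of these tissues in the P450 changes was not tested.

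**Figure D2:**
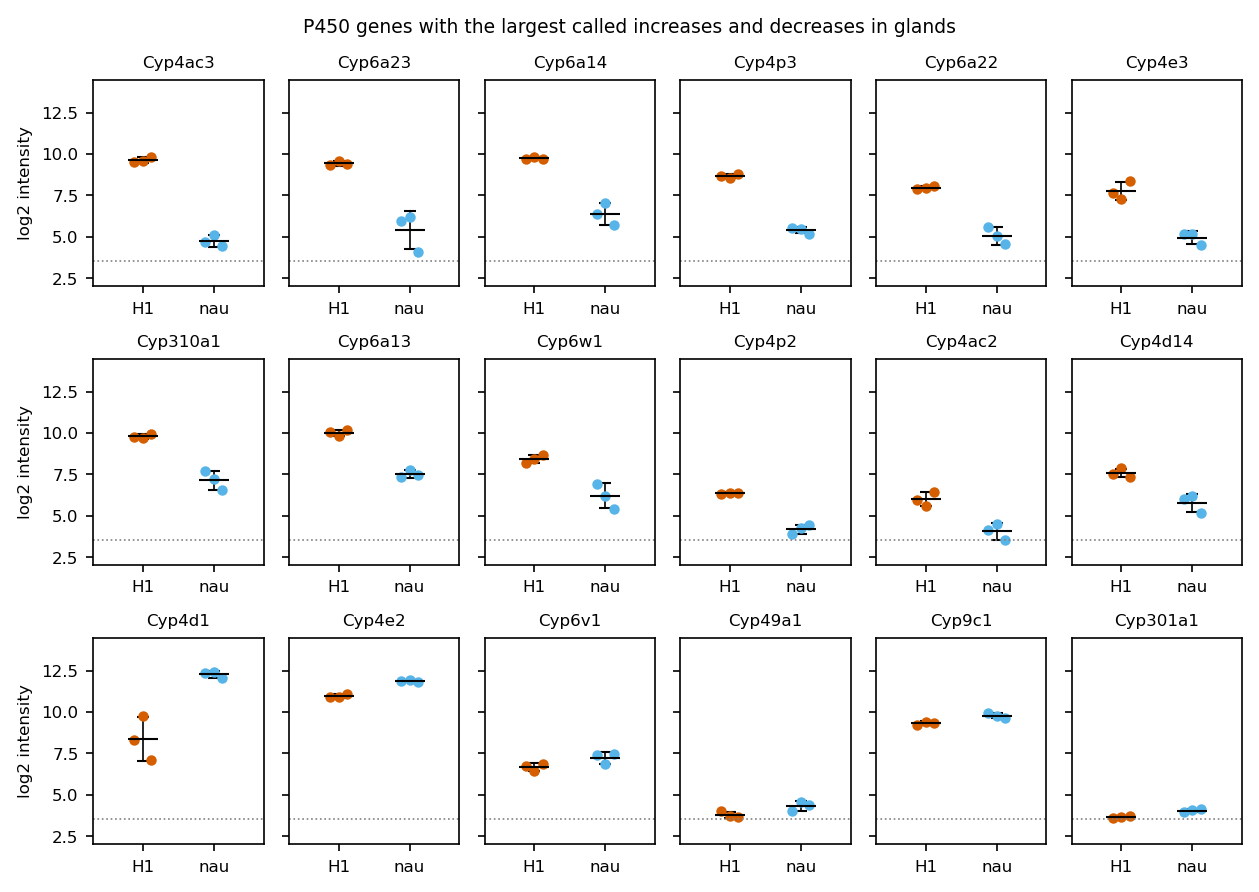
Log2 intensity in glands labelled H1 RNAi (H1) and nau RNAi (nau) of the 12 P450 genes with the largest called increases (upper 2 rows) and the 6 with the largest called decreases (bottom row), with 1 point per array, a bar at the group mean and error bars of 1 SD (n = 3 per group); the dotted line is the Tag control level of 3.55. The groups do not overlap in 16 panels, and they overlap for Cyp6v1 and Cyp49a1. The genes were chosen for called changes between these groups, which favours such separation.

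Of the 12 largest increases in glands, 4 belonged to the Cyp6a subfamily of the CYP3 clan, several of whose enzymes act on insecticides. Of its 13 members 9 were higher in glands labelled H1 RNAi and none was lower, with a median change of 1.15. Over all named genes 23.6% were higher and 23.6% lower, with a median change of -0.04. Cyp6a23 had 9.31, 9.60 and 9.39 in glands labelled H1 RNAi, against 5.93, 6.22 and 4.09 in glands labelled nau RNAi, a change of 4.02 ± 0.44 (16.3-fold higher, adjusted p = 6.36e-05). Cyp6a14 had 9.69, 9.83 and 9.72 in glands labelled H1 RNAi, against 6.39, 7.05 and 5.72 in glands labelled nau RNAi, a change of 3.36 ± 0.27 (10.3-fold higher, adjusted p = 7.13e-06). In both genes array c of the nau RNAi glands was the lowest. Cyp6a22 had 7.87, 7.96 and 8.04 in glands labelled H1 RNAi, against 5.58, 5.04 and 4.53 in glands labelled nau RNAi, a change of 2.91 ± 0.21 (7.50-fold higher, adjusted p = 3.81e-06). Cyp6a13 had 10.03, 9.81 and 10.18 in glands labelled H1 RNAi, against 7.31, 7.77 and 7.45 in glands labelled nau RNAi, a change of 2.50 ± 0.13 (5.64-fold higher, adjusted p = 5.46e-07). For all 4 genes the H1 RNAi arrays lay within a narrower band than the nau RNAi arrays. Smaller increases were called for Cyp6a17 (1.71), which is known for its part in temperature preference, and for Cyp6a9 (1.20) and Cyp6a8 (0.54). Cyp6a21 and Cyp6a2 were also called higher, and because their nau RNAi means were at the Tag level their increases are given as bounds, at least 1.94-fold for Cyp6a21 and at least 1.60-fold for Cyp6a2. Cyp6a16, Cyp6a18, Cyp6a19 and Cyp6a20 were not called, with changes of -0.20, -0.04, 0.26 and 0.42.

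Elsewhere in the CYP3 clan, Cyp310a1 had 9.74, 9.69 and 9.94 in glands labelled H1 RNAi, against 7.67, 7.19 and 6.53 in glands labelled nau RNAi, a change of 2.66 ± 0.23 (6.31-fold higher, adjusted p = 1.45e-05). Cyp6w1, known to be induced by phenobarbital, had 8.19, 8.42 and 8.66 in glands labelled H1 RNAi, against 6.95, 6.20 and 5.44 in glands labelled nau RNAi, a change of 2.23 ± 0.31 (4.69-fold higher, adjusted p = 2.93e-04). In both genes the 3 nau RNAi arrays were spread over more than 1 unit while the H1 RNAi arrays stayed together. Cyp9b1 had 10.60, 10.75 and 10.64 in glands labelled H1 RNAi, against 9.22, 9.33 and 8.65 in glands labelled nau RNAi, a change of 1.60 ± 0.19 (3.02-fold higher, adjusted p = 9.67e-05). Cyp28a5 had 11.47, 11.54 and 11.65 in glands labelled H1 RNAi, against 10.50, 10.44 and 10.17 in glands labelled nau RNAi, a change of 1.18 ± 0.14 (2.27-fold higher, adjusted p = 9.14e-05). Cyp309a1 (1.39), Cyp28d2 (0.89), Cyp6d4 (0.76), Cyp6d2 (0.75), Cyp9f2 (0.60), Cyp9b2 (0.54), Cyp9h1 (0.51) and Cyp6d5 (0.38) were also called higher. Cyp6t1 was called higher as well, from a nau RNAi mean at the Tag level, by at least 1.04-fold. In all, 22 of 37 members of the clan were higher in glands labelled H1 RNAi and 2 were lower, against 23.6% higher and 23.6% lower over all named genes. Cyp6g1, the enzyme whose overexpression gives resistance to DDT and imidacloprid, was not called (-0.33, adjusted p = 0.244), nor were its neighbours Cyp6g2 (0.03) and Cyp6t3 (-0.34).

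The CYP4 clan, many of whose members hydroxylate fatty acids, held both the largest increase and the largest decrease. Cyp4ac3 had 9.50, 9.56 and 9.82 in glands labelled H1 RNAi, against 4.69, 5.12 and 4.42 in glands labelled nau RNAi, a change of 4.88 ± 0.18 (29.4-fold higher, adjusted p = 6.24e-08). Its neighbour Cyp4ac2 had 5.97, 5.60 and 6.44 in glands labelled H1 RNAi, against 4.14, 4.53 and 3.53 in glands labelled nau RNAi, a change of 1.94 ± 0.26 (3.83-fold higher, adjusted p = 2.42e-04). Cyp4p3 had 8.68, 8.54 and 8.79 in glands labelled H1 RNAi, against 5.53, 5.46 and 5.18 in glands labelled nau RNAi, a change of 3.28 ± 0.11 (9.73-fold higher, adjusted p = 2.88e-08). All H1 RNAi arrays of these genes stood above all nau RNAi arrays. Cyp4p2 had 6.31, 6.40 and 6.38 in glands labelled H1 RNAi, against 3.88, 4.26 and 4.43 in glands labelled nau RNAi, a change of 2.18 ± 0.14 (4.52-fold higher, adjusted p = 1.45e-06). Cyp4e3 had 7.62, 7.31 and 8.36 in glands labelled H1 RNAi, against 5.18, 5.16 and 4.49 in glands labelled nau RNAi, a change of 2.82 ± 0.26 (7.07-fold higher, adjusted p = 2.14e-05). Cyp4d14 had 7.54, 7.87 and 7.36 in glands labelled H1 RNAi, against 6.00, 6.21 and 5.17 in glands labelled nau RNAi, a change of 1.79 ± 0.24 (3.47-fold higher, adjusted p = 2.55e-04). In Cyp4ac3, Cyp4ac2, Cyp4p3, Cyp4e3 and Cyp4d14, array c of the nau RNAi glands gave the lowest value. Over the 81 genes that array was the lowest of the 3 nau RNAi arrays for 41 (50.6%), against 36.8% of all named genes. Increases of 0.30 to 1.67 were called for Cyp4ac1 (1.67), Cyp4d8 (1.26), Cyp4aa1 (1.00), Cyp4s3 (0.78), Cyp4ad1 (0.34) and Cyp4p1 (0.30). Cyp312a1 was called higher from a nau RNAi mean at the Tag level, by at least 1.21-fold.

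The decreases were fewer and, apart from Cyp4d1, small. Cyp4d1 had 8.29, 9.75 and 7.12 in glands labelled H1 RNAi, against 12.38, 12.41 and 12.05 in glands labelled nau RNAi, a change of -3.90 ± 0.52 (14.9-fold lower, adjusted p = 2.30e-04). All 3 H1 RNAi arrays were lower than every nau RNAi array, but they were far apart from each other. Cyp4e2 had 10.91, 10.91 and 11.07 in glands labelled H1 RNAi, against 11.87, 11.94 and 11.79 in glands labelled nau RNAi, a change of -0.90 ± 0.08 (1.87-fold lower, adjusted p = 1.69e-05). Cyp9c1 had 9.19, 9.41 and 9.35 in glands labelled H1 RNAi, against 9.93, 9.78 and 9.61 in glands labelled nau RNAi, a change of -0.46 ± 0.10 (1.38-fold lower, adjusted p = 0.00436). Cyp6v1 had 6.75, 6.43 and 6.88 in glands labelled H1 RNAi, against 7.39, 6.83 and 7.47 in glands labelled nau RNAi, a change of -0.54 ± 0.17 (1.45-fold lower, adjusted p = 0.0309). In Cyp4e2 and Cyp9c1 the groups did not overlap, whereas array b of the nau RNAi glands lay within the range of the H1 RNAi glands for Cyp6v1. A further probe set, assigned to both Cyp6v1 and shn, was called higher in glands (0.72, adjusted p = 0.0393) and was not called in Kc cells, and its signal cannot be given to either gene. The mitochondrial genes Cyp49a1 and Cyp301a1 were lower at levels near background. Cyp49a1 had 4.01, 3.70 and 3.67 in glands labelled H1 RNAi, against 3.99, 4.55 and 4.38 in glands labelled nau RNAi, a change of -0.52 ± 0.16 (1.43-fold lower, adjusted p = 0.0305). Cyp301a1 had 3.61, 3.66 and 3.71 in glands labelled H1 RNAi, against 3.93, 4.07 and 4.13 in glands labelled nau RNAi, a change of -0.39 ± 0.08 (1.31-fold lower, adjusted p = 0.00492). The H1 RNAi arrays of Cyp49a1 reached into the range of the nau RNAi arrays, while those of Cyp301a1 did not. Cyp4c3, with -0.33 ± 0.11 (adjusted p = 0.0398), was the seventh gene called lower.

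Among the genes with values given per array, 4 gland calls depended on single arrays. The adjusted p of Cyp4p1 exceeded 0.05 without H1 array a, b or c or without nau array a or c, that of Cyp6d5 without any H1 array or without nau array a or b, that of Cyp49a1 without H1 array b or c or nau array b or c, and that of Cyp6v1 without H1 array b or nau array a or c. The gland calls of Cyp4p1 and Cyp6d5 were also lost with array medians subtracted, with array weights and with the glands fitted alone, and that of Cyp4p1 with quantile normalization. Without H1 array b the count of decreases was 4. A measure of RNA integrity also moved with the label. The 3' minus 5' difference of the actin control probe sets was 2.29 ± 0.18 in glands labelled H1 RNAi and 1.91 ± 0.10 in glands labelled nau RNAi, that of GAPDH was 2.53 ± 0.09 in H1 RNAi glands and 2.13 ± 0.05 in nau RNAi glands, and that of eIF-4A was 2.48 ± 0.07 in H1 RNAi glands and 2.17 ± 0.09 in nau RNAi glands (log2, SD, n = 3 each). The part of this shift in the P450 values was not tested.

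The 2 systems share no array, and their responses were set side by side. Of the 81 genes, 11 were called in both, 3 in Kc cells alone, 35 in glands alone and 32 in neither. Of the 11, 9 rose in both systems and 2 rose in Kc cells and were lower in glands. The change in glands exceeded that in Kc cells for 22 genes and was below it for 13 (27.2% and 16.0% of the members), in a limma test of the difference itself that called 17.2% of all named genes above and 14.7% below. The median difference was 0.10 over the P450 genes and -0.02 over all named genes.

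**Figure D3:**
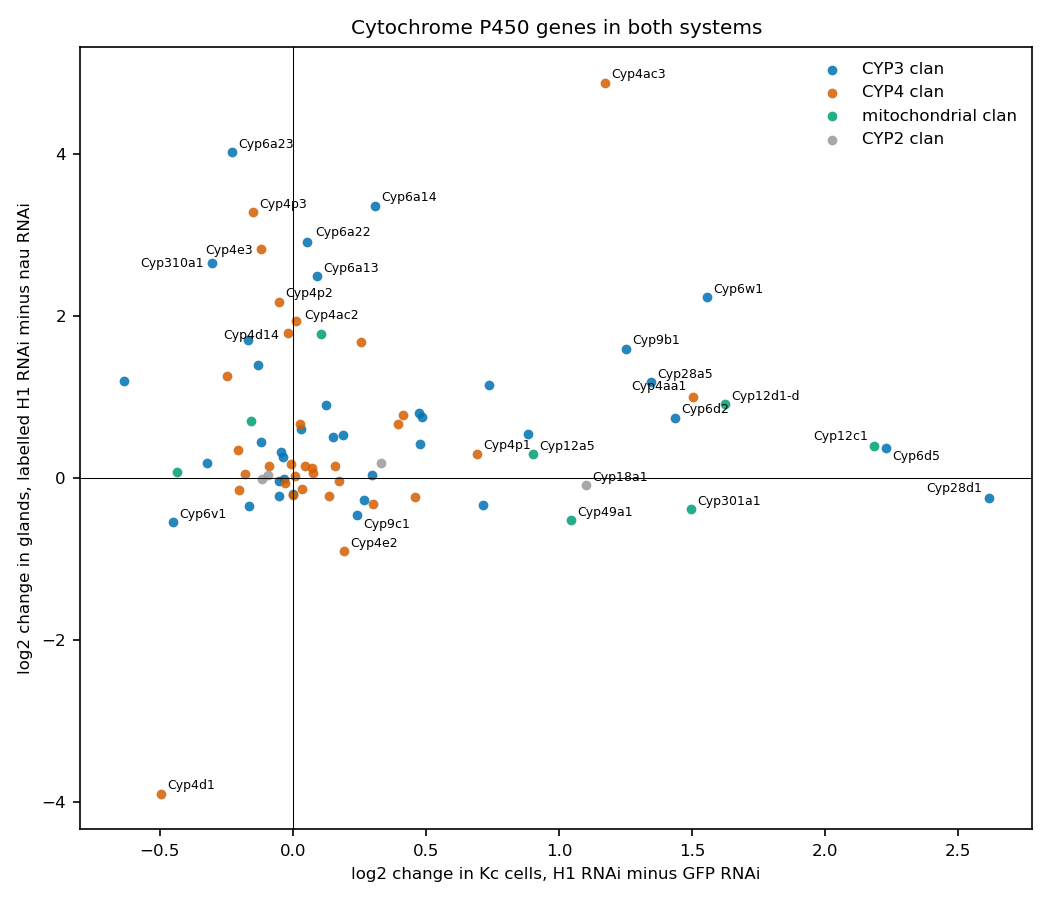
Log2 change of the 81 P450 genes in Kc cells (horizontal axis, H1 RNAi minus GFP RNAi) and in glands (vertical axis, labelled H1 RNAi minus nau RNAi), coloured by clan, with names for the 29 genes whose values are given per array. Cyp4ac3, Cyp6a23 and Cyp6a14 lie high on the gland axis and Cyp28d1, Cyp6d5 and Cyp12c1 far out on the Kc axis.

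The 9 genes that rose in both systems were Cyp12c1, Cyp12d1-d, Cyp28a5, Cyp4aa1, Cyp4ac3, Cyp4p1, Cyp6d2, Cyp6d5 and Cyp9b1. With array medians subtracted the gland calls of Cyp4p1 (adjusted p = 0.101) and Cyp6d5 (adjusted p = 0.0672) were lost. Cyp12d1-d had 10.10, 10.16 and 10.16 in H1 RNAi glands, against 9.32, 9.51 and 8.84 in nau RNAi glands, a change of 0.91 ± 0.15 (1.88-fold higher, adjusted p = 8.55e-04). Cyp4aa1 had 4.95, 5.19 and 5.35 in H1 RNAi glands, against 3.86, 4.24 and 4.37 in nau RNAi glands, a change of 1.00 ± 0.14 (2.01-fold higher, adjusted p = 3.48e-04). Cyp6d2 had 10.56, 10.58 and 10.75 in H1 RNAi glands, against 9.78, 9.81 and 10.06 in nau RNAi glands, a change of 0.75 ± 0.10 (1.68-fold higher, adjusted p = 2.97e-04). None of these groups overlapped. Cyp12c1 had 10.68, 10.71 and 10.59 in H1 RNAi glands, against 10.10, 10.25 and 10.47 in nau RNAi glands, a change of 0.39 ± 0.10 (1.31-fold higher, adjusted p = 0.0114). Cyp6d5 had 10.73, 10.64 and 10.75 in H1 RNAi glands, against 10.12, 10.34 and 10.53 in nau RNAi glands, a change of 0.38 ± 0.13 (1.30-fold higher, adjusted p = 0.0375). Cyp4p1 had 8.93, 9.03 and 8.93 in H1 RNAi glands, against 8.55, 8.78 and 8.65 in nau RNAi glands, a change of 0.30 ± 0.11 (1.23-fold higher, adjusted p = 0.049). The gland changes of Cyp12c1 and Cyp6d5 were below their Kc changes (difference -1.79 ± 0.16, adjusted p = 4.58e-05 for Cyp12c1 and -1.85 ± 0.20, adjusted p = 1.34e-04 for Cyp6d5). For Cyp6d2 the difference was -0.69 ± 0.16, adjusted p = 0.0121, and for Cyp4p1, where it was -0.39 ± 0.17, adjusted p = 0.13, it did not pass the test. Cyp4ac3 went the other way, with a gland change above the Kc change (3.71 ± 0.29, adjusted p = 2.11e-05). Its Kc change starts from a GFP RNAi mean under the Tag level, so the size of this difference is not exact. Cyp28a5 rose by 1.35 in Kc cells and by 1.18 in glands, and the difference of -0.16 ± 0.22 did not pass the test (adjusted p = 0.66). Likewise the difference did not pass for Cyp9b1 (0.34 ± 0.30, adjusted p = 0.467), Cyp4aa1 (-0.50 ± 0.23, adjusted p = 0.147) or Cyp12d1-d (-0.71 ± 0.24, adjusted p = 0.0548). With dim probe sets left out, limma called the difference of Cyp12d1-d (adjusted p = 0.0468). It was also called for a probe set shared by Cyp12d1-d and Cyp12d1-p (-1.36 ± 0.18, adjusted p = 4.35e-04).

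Opposite calls were found for Cyp301a1 and Cyp49a1. The gland change minus the Kc change was -1.88 ± 0.13, adjusted p = 1.34e-05 for Cyp301a1 and -1.56 ± 0.26, adjusted p = 0.00172 for Cyp49a1. Cyp12a5, Cyp18a1 and Cyp28d1 were the 3 genes called in Kc cells alone. Cyp28d1 had 10.39, 10.19 and 10.47 in H1 RNAi glands, against 10.29, 10.64 and 10.84 in nau RNAi glands (change -0.25 ± 0.15, adjusted p = 0.229), and the difference between the systems was -2.86 ± 0.24, adjusted p = 3.41e-05. Cyp12a5 had 4.26, 4.28 and 4.69 in H1 RNAi glands, against 4.31, 3.93 and 4.11 in nau RNAi glands (change 0.29 ± 0.14, adjusted p = 0.127), with groups that overlapped and a difference that did not pass the test (-0.61 ± 0.22, adjusted p = 0.0757). Cyp18a1 had 4.86, 4.96 and 5.15 in H1 RNAi glands, against 4.96, 5.29 and 4.98 in nau RNAi glands (change -0.09 ± 0.12, adjusted p = 0.583), but its further probe set was called higher in glands (0.90, adjusted p = 0.00396), so the probe sets disagree there. The difference between the systems was called for the first probe set (-1.19 ± 0.18, adjusted p = 0.00116) and not for the further one (-0.22, adjusted p = 0.667).

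Of the 12 largest gland increases, Cyp4ac3 alone was also called in Kc cells in the fit over all arrays. With the Kc arrays fitted alone, Cyp6w1 was called higher there as well. Cyp6a23 had 8.89 and 9.01 in H1 RNAi cells, against 9.15 and 9.21 in GFP RNAi cells (change -0.23 ± 0.54). Cyp4p3 had 7.82 and 7.81 in H1 RNAi cells, against 7.96 and 7.97 in GFP RNAi cells (change -0.15 ± 0.13). Cyp6a22 had 8.38 and 8.36 in H1 RNAi cells, against 8.31 and 8.33 in GFP RNAi cells (change 0.05 ± 0.26). These 3 genes were well above the Tag level in Kc cells, as were Cyp6a13 with 8.82 and 8.71 in H1 RNAi cells, against 8.64 and 8.71 in GFP RNAi cells and Cyp6a14 with 6.66 and 6.79 in H1 RNAi cells, against 6.28 and 6.56 in GFP RNAi cells. In contrast, both Kc groups were at the Tag level for Cyp4e3, with 3.25 and 3.13 in H1 RNAi cells, against 3.43 and 3.19 in GFP RNAi cells, and for Cyp4ac2, with 3.58 and 3.31 in H1 RNAi cells, against 3.45 and 3.42 in GFP RNAi cells. Differences between the systems for these genes set a gland change against a Kc level that was not above background. Cyp310a1 had 3.57 and 3.59 in H1 RNAi cells, against 3.79 and 3.98 in GFP RNAi cells (change -0.30 ± 0.29). Cyp4p2 had 5.38 and 5.63 in H1 RNAi cells, against 5.52 and 5.60 in GFP RNAi cells (change -0.05 ± 0.17). Cyp4d14 had 5.09 and 4.82 in H1 RNAi cells, against 5.05 and 4.90 in GFP RNAi cells (change -0.02 ± 0.30). These 3 genes showed no called change in Kc cells. The difference between the systems was called for each of these genes, from 1.81 (Cyp4d14) to 4.25 (Cyp6a23). Cyp6w1 was the exception among the large gland increases in that the difference was not called (0.67 ± 0.49, adjusted p = 0.379). Cyp4d1, the gene with the largest gland decrease, had 3.67 and 3.74 in H1 RNAi cells, against 4.52 and 3.89 in GFP RNAi cells, so that it was near the Tag level in the cell line, with a change of -0.50 ± 0.64 (adjusted p = 0.868). Its difference between the systems was -3.40 ± 0.82, adjusted p = 0.0133. Cyp4e2 had 10.17 and 10.25 in H1 RNAi cells, against 9.99 and 10.05 in GFP RNAi cells (change 0.19 ± 0.10). Cyp9c1 had 10.14 and 10.13 in H1 RNAi cells, against 9.91 and 9.88 in GFP RNAi cells (change 0.24 ± 0.12). For both genes the difference between the systems was called, at -1.10 for Cyp4e2 and -0.70 for Cyp9c1. Cyp6v1 had 8.25 and 8.14 in H1 RNAi cells, against 8.63 and 8.67 in GFP RNAi cells (change -0.45 ± 0.21, adjusted p = 0.374), lower in both H1 RNAi arrays. With the Kc arrays fitted alone, limma called this decrease (adjusted p = 0.0159). The difference between the systems was not called for Cyp6v1 (-0.09 ± 0.27, adjusted p = 0.857).

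Over the 81 genes, the control level was at least 1 log2 unit higher in nau RNAi glands than in GFP RNAi cells for 24 genes and at least 1 unit lower for 16. The share over all named genes was not counted, so these counts are no result about P450 genes. RNA integrity also differed between the systems. The 3' minus 5' difference of the actin control was 0.44 ± 0.06 in GFP RNAi cells (SD, n = 2) and 1.91 ± 0.10 in nau RNAi glands (SD, n = 3). Its part in the levels was not tested. The means of both groups were above the Tag level for 52 genes in Kc cells and for 60 in glands. In 14 genes all 4 group means were at or below the Tag level, so that a change was not measurable above background there: Cyp303a1, Cyp308a1, Cyp309a2, Cyp311a1, Cyp313a1, Cyp313a2, Cyp313a4, Cyp313a5, Cyp316a1, Cyp318a1, Cyp4d21, Cyp4g1, Cyp4g15 and Cyp6a18. Cyp4g1 is known as the oenocyte enzyme that makes cuticular hydrocarbons. None of the 14 was called in either system, though Cyp309a2 was called in the test of the difference (-0.54).

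By family, of 22 Cyp4 genes 3 rose in Kc cells, and 12 were higher and 3 lower in glands. Of 23 Cyp6 genes 2 rose in Kc cells, and 14 were higher and 1 lower in glands. Of 5 Cyp9 genes 1 rose in Kc cells, and 4 were higher and 1 lower in glands. Every Cyp9 member was thus called in glands. Among all named genes 23.6% were higher and 23.6% lower there, and 3.46% rose in Kc cells. Of 6 Cyp12 genes 3 rose in Kc cells, and 4 were higher and none lower in glands, where Cyp12a4, linked to lufenuron resistance, had a change of 1.77 ± 0.14 and Cyp12b2 one of 0.70 ± 0.21. Of 4 Cyp28 genes 2 rose in Kc cells and 2 in glands. Among the remaining 21 genes 3 rose in Kc cells, and 3 were higher and 2 lower in glands. The 6 Cyp313 genes were called in neither system, with gland changes from -0.14 to 0.15, and 4 of them were at the Tag level in every group. No family had a member called lower in Kc cells in the fit over all arrays. With the Kc arrays fitted alone, 4 members were called lower, among them Cyp6v1. The median gland changes were 0.51 for Cyp4, 0.54 for Cyp6, 0.54 for Cyp9, 0.54 for Cyp12, 0.67 for Cyp28 and 0.03 for the others, against -0.04 over all named genes.

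**Figure D4:**
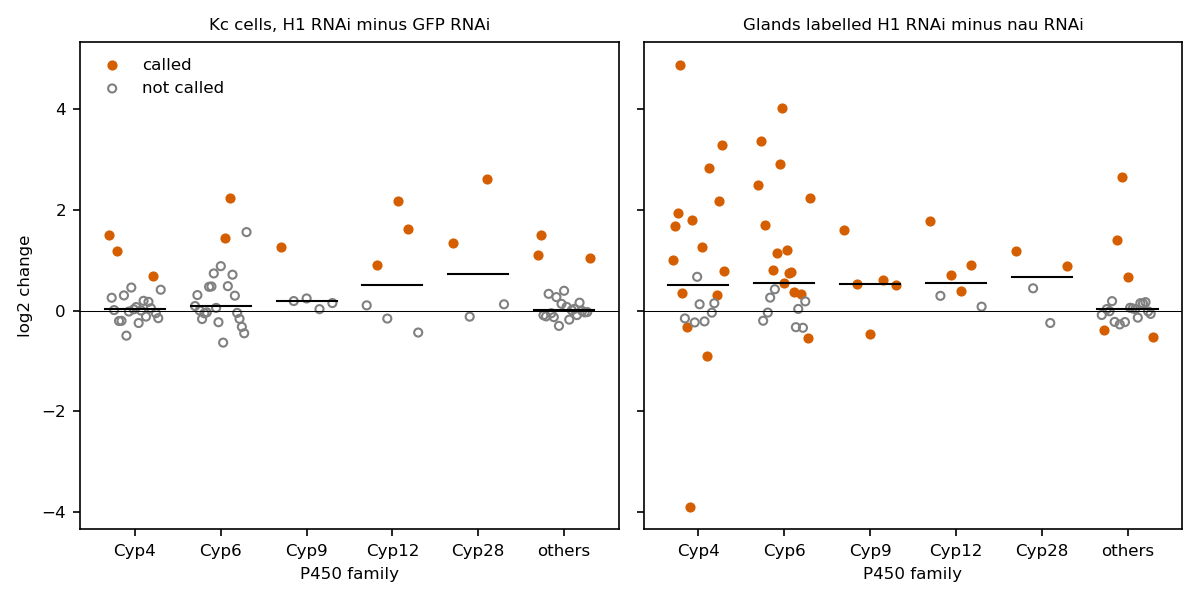
Log2 change of each P450 gene by family in Kc cells (left panel) and in glands (right panel), with filled points for called genes, open points for those not called and a bar at the family median. Filled points lie above 0 in the left panel in every family, and in the right panel 7 lie below 0.

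Grouped by known role, 19 measured genes linked to insecticides had 6 increases in Kc cells and 15 increases and 1 decrease (Cyp4e2) in glands, with median changes of 0.49 and 0.75. The 6 genes with a role in hormone handling or cuticle, or listed with them, had 3 increases in Kc cells (Cyp301a1, Cyp18a1 and Cyp49a1), and in glands 1 increase (Cyp310a1) and 2 decreases (Cyp301a1 and Cyp49a1). Of 4 genes listed for fatty acids and hydrocarbons, 3 were at the Tag level, and only Cyp4s3 was called, in glands. The shares over all named genes were 3.46% higher in Kc cells, and 23.6% higher and 23.6% lower in glands.

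P450 genes often lie next to each other as products of gene duplication. In the RefSeq gene order of Release 6, 42 of the 81 genes belonged to 15 runs in which P450 genes follow each other directly. Of these 42 genes, 6 rose in Kc cells, and 23 were higher and 1 lower in glands, while of the 39 others 8 rose in Kc cells, and 16 were higher and 6 lower in glands. For comparison, 3.46% of all named genes rose in Kc cells, and 23.6% were higher and 23.6% lower in glands. The median gland change was 0.48 within runs and 0.18 outside them. The longest run has 9 genes, in the order Cyp6a22, Cyp6a17, Cyp6a23, Cyp6a19, Cyp6a9, Cyp6a20, Cyp6a21, Cyp6a8 and Cyp317a1. Their gland changes along the run were 2.91, 1.71, 4.02, 0.26, 1.20, 0.42, 1.15, 0.54 and -0.02, with Cyp6a19, Cyp6a20 and Cyp317a1 not called. The value of Cyp6a21 is a difference from a nau RNAi mean at background, for which the bound is at least 1.94-fold. Uncalled genes thus lay between called ones, and none of the 9 was called in Kc cells. Near-identical neighbours can share probes, so that single values within such runs may include signal from a paralog.

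**Figure D5:**
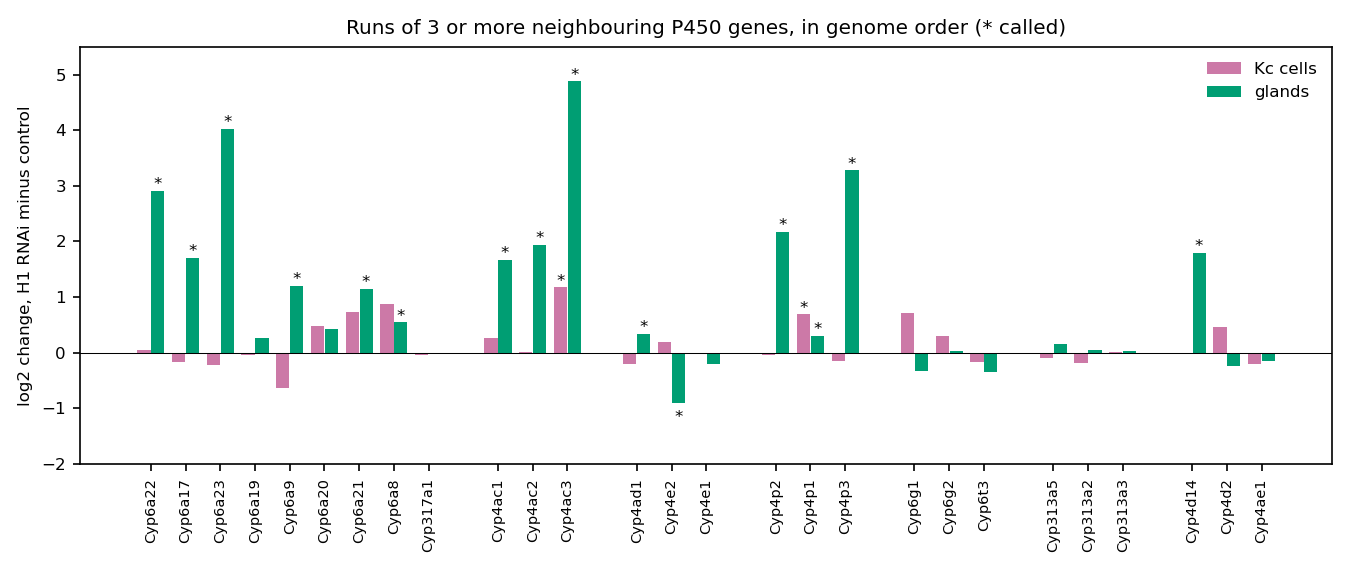
Log2 change in Kc cells and in glands (H1 RNAi minus control) for the P450 genes in runs of 3 or more, in genome order, with an asterisk on called changes. Increases are uneven within runs, from 4.88 for Cyp4ac3 beside 1.94 for Cyp4ac2, and from 3.28 for Cyp4p3 beside 0.30 for Cyp4p1. The bars of Cyp4ac3 in Kc cells and of Cyp6a21 in glands start from a control mean at background.

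Calls were uneven within runs in both systems. In the run of Cyp4ac1, Cyp4ac2 and Cyp4ac3, the gland changes were 1.67, 1.94 and 4.88, all called, while in Kc cells only Cyp4ac3 was called. In the run of Cyp4p2, Cyp4p1 and Cyp4p3, the gene in the middle had the smallest gland change and was the one called in Kc cells (0.69, against -0.05 for Cyp4p2 and -0.15 for Cyp4p3). Of the pair Cyp28d2 and Cyp28d1, Cyp28d1 alone was called in Kc cells (2.61, against 0.13 for Cyp28d2), and Cyp28d2 alone was called in glands (0.89, against -0.25 for Cyp28d1). The pair Cyp12a5 and Cyp12a4 showed the same split. In Kc cells Cyp12a5 alone was called (0.90, against 0.10 for Cyp12a4), and in glands Cyp12a4 alone (1.77, against 0.29 for Cyp12a5). Differences between neighbours were not tested. Cyp12d1-d lies beside Cyp12d1-p, and a probe set assigned to both rose in both systems, by 2.05 in Kc cells and by 0.70 in glands. The limma test called its gland change below its Kc change (-1.36, adjusted p = 4.35e-04). The further probe set of Cyp12e1 was called in neither system (-0.30 in Kc cells and -0.20 in glands).

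Genes that work with the P450s were counted as well. Over all named genes, 3.46% rose in Kc cells, and 23.6% were higher and 23.6% lower in glands. Of 8 genes of ecdysteroid synthesis, whose P450 enzymes carry names of their own, 2 rose in Kc cells. These were shd (0.61), the mitochondrial P450 that turns ecdysone into its active form, and nvd, an oxygenase that is no P450. Both GFP RNAi arrays of nvd were below the Tag level, so that it was at least 2.09-fold higher in H1 RNAi cells (adjusted p = 1.25e-04). In glands sro, a dehydrogenase of the pathway, was lower by far, with 6.04, 6.13 and 4.83 in H1 RNAi glands, against 10.18, 10.01 and 10.25 in nau RNAi glands (change -4.48 ± 0.29, adjusted p = 1.89e-06), while spok and nvd were called higher with both group means under the Tag control level, so that no fold is given. Of 4 measured genes listed as electron donors, Cyt-b5-r alone rose in Kc cells (1.49), and all 4 were higher in glands. These were Cyt-b5-r (3.35), Fdx1 (0.99), Fdx2 (0.49) and Cyt-b5 (0.36). Fdx1 and Fdx2 are the ferredoxins, Cyt-b5 is cytochrome b5, and Cyt-b5-r is named for a protein related to it. A role of Cyt-b5-r as an electron donor to P450s is not established here. Without it no gene of the list was called in Kc cells, and the gland changes were 0.36 to 0.99. The P450 reductase gene Cpr was not analysed here.

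Of 7 measured genes of haem synthesis none was called in Kc cells, and at an unadjusted p under 0.05 limma had 2 lower, Alas (-0.39) and Coprox (-0.52). In glands FeCH (1.19), Uros1 (0.77), Alas (0.56), the first enzyme of the pathway, and Ppox (0.48) were higher, and Pbgs (-0.72) was lower. Of 9 regulators of the response to foreign compounds none was called in Kc cells, and at an unadjusted p under 0.05 limma had 2 higher, crc (0.27) and Met (0.34). In glands ss, the fly homologue of the dioxin receptor, was called higher with both group means under the Tag control level, so that no fold is given, whereas 4 regulators were lower. These were Keap1 (-1.01), the juvenile hormone receptors Met (-0.92) and gce (-0.69), and tgo (-0.49), the partner of ss. cnc, the transcription factor that Keap1 holds back, was not called (-0.18, adjusted p = 0.0954). Both lists are short, and 23.6% of all named genes were called higher and 23.6% lower in glands. For the unadjusted p the share over all named genes was not counted. The cyclophilin genes that share the symbol were called in glands for Cyp40 (0.38, adjusted p = 0.008) and not for Cyp1 (-0.19, adjusted p = 0.0659), and in Kc cells for neither.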

How the data were processed

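Affymetrix arrays measured transcript levels in biotin-labelled total RNA of 10 samples in 4 groups. The authors deposited linear intensity values, 1 for each probe set of an array. Per the submitters' processing notes the tool was RMA, whose version is not stated, nor is it stated if the cell and gland arrays were normalized jointly; the genome build is not given in the sources used here. Intensities ran from 4.39 to 20761, and log2 was taken before any test. Of 18952 probe sets, 183 Affymetrix controls were left out, and 13647 of the remaining 18769 carried 1 symbol, 402 several and 4720 none in the platform annotation. Probe sets with several symbols named no gene.

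The limma package 3.58.1 (R 4.3.3; lmFit, eBayes) fitted 1 mean per group over the 10 arrays, with contrasts for Kc cells, for glands and for the difference of both changes, and Benjamini-Hochberg adjustment ran across the 18769 probe sets, with calls at 0.05. The same fit was tested on simulated data. Neither the labels nor the files give a batch or scan date, so none was tested. Precision is limited by the small number of arrays.

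Values per array are given for each gene called in Kc cells or in both systems, and for the 12 largest called increases and 6 largest called decreases in glands, with other members by counts and ranges. Pathway lists (ecdysteroid synthesis, electron donors, haem synthesis, regulators of the response to foreign compounds), role lists and markers of salivary gland, haemocytes, fat body, midgut, Malpighian tubule, neurons and glia, muscle, and trachea and epidermis came from textbook knowledge, and phm is printed under its RefSeq symbol phtm. The members, lists and rules were chosen with earlier results of these data known. The RefSeq annotation of Release 6 was used only for names and gene order, and no coordinates are given. Alternatives were each system fitted alone, dim probe sets left out, quantile normalization, array medians subtracted, a block for the array letter, trend and robust eBayes, array weights, the mean of a gene's probe sets and leaving out each array; a 2-fold limit was added after seeing the data.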

Additional observations from a re-analysis of the deposited data

Results flagged for a closer look

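For 21 of the 29 P450 genes with values per array, the limma test of the difference between the systems called the gland change apart from the Kc change. The 29 genes were chosen for their called changes, which raises this share. Over all 81 P450 genes 22 were called above and 13 below (27.2% and 16%), against 17.2% and 14.7% of all named genes. The gland change minus the Kc change (log2) was above 0 for 11 of the 21 genes. It was 4.25 for Cyp6a23, 3.05 for Cyp6a14, 2.85 for Cyp6a22 and 2.40 for Cyp6a13 in the Cyp6a subfamily. It was 3.71 for Cyp4ac3, 3.43 for Cyp4p3, 2.94 for Cyp4e3, 2.23 for Cyp4p2, 1.93 for Cyp4ac2 and 1.81 for Cyp4d14 in the Cyp4 family, and 2.96 for Cyp310a1. For Cyp4ac3 both changes were increases, the one in Kc cells from a GFP RNAi mean under the Tag level, so that its difference is not exact. For the other 10 the Kc change was not called, and for Cyp4e3 and Cyp4ac2 both Kc groups were at the Tag level.

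The difference was below 0 for 10 genes. For Cyp301a1 it was -1.88 and for Cyp49a1 -1.56, with a called increase in Kc cells and a called decrease in glands. For Cyp28d1 it was -2.86 and for Cyp18a1 -1.19, with an increase called in Kc cells alone. A further probe set of Cyp18a1 rose in both systems, with a difference of -0.22 that did not pass the test (adjusted p = 0.667). For Cyp6d5 it was -1.85, for Cyp12c1 -1.79 and for Cyp6d2 -0.69, with increases called in both systems. For Cyp4d1 it was -3.40, for Cyp4e2 -1.10 and for Cyp9c1 -0.70, with a decrease called in glands alone. In Kc cells Cyp4d1 was near the Tag level. Without Kc GFP array b or H1 array b the difference of Cyp4d1 missed the threshold, and so did that of Cyp6d2 without Kc GFP array a or H1 array b.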

How the results depend on the processing

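No call of a named P450 gene reversed under any alternative, but 4 gland calls were lost under some of them. These were Cyp4p1 with the glands fitted alone (adjusted p = 0.0504), quantile normalization (0.0888), array medians subtracted (0.101) or array weights (0.15), Cyp6d5 with the glands fitted alone (0.0512), array medians subtracted (0.0672) or array weights (0.0666), Cyp6v1 with the glands fitted alone (0.0753) or array weights (0.0849), and Cyp49a1 with the glands fitted alone (0.0532). In Kc cells, the count of 14 increases was 22 with 4 decreases when each system was fitted alone, 22 with 3 decreases with array weights, and 16 with 1 decrease with trend and robust eBayes, against none in the fit over all arrays. Leaving out 1 array gave 9 to 10 increases. In glands, the count of 7 decreases was 4 when the glands were fitted alone and 4 to 8 on leaving out 1 array, while increases ran from 34 to 37 on leaving out 1 array, against 39. The test of the difference had 17 to 25 genes above and 8 to 14 below on leaving out 1 Kc or gland array. With an added requirement of a 2-fold change, 22 increases and 1 decrease remained in glands. Quantile normalization, subtraction of array medians, leaving out dim probe sets and the mean of all probe sets gave 14 increases in Kc cells and 35 to 41 in glands, with 7 to 10 decreases in glands. With array medians subtracted the gland calls were 35 higher and 10 lower. The cause of these shifts was not tested, except that leaving out an array leaves fewer samples, with a lone Kc array assumed to vary like the other groups.

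For arrays with the same letter, the correlation of deviations from the group mean was -0.0032 in Kc cells, and -0.0722, 0.0892 and 0.0655 in glands. With 2 or 3 arrays per group, the deviations within a group depend on each other. These values therefore cannot tell if the letters pair the samples. With the letter as a replicate block, 13 genes were higher in Kc cells and none lower, 38 higher and 5 lower in glands, and 20 above and 11 below in the test of the difference. Of the 13, 12 were among the 14 called without it. The block ended the Kc calls of Cyp49a1 (adjusted p = 0.0885) and Cyp4ac3 (adjusted p = 0.0524) and the gland call of Cyp49a1 (adjusted p = 0.0734). The 14 genes at the Tag level, and increases that start from it, are limited by background.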
